A study of Mus musculus with 15 samples.

Results

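The Lin28 and let-7 timing genes are described here by 9 members: Lin28a, Lin28b, Hmga1, Hmga2, Igf2bp1, Igf2bp2, Igf2bp3, Trim71 and Mycn. They were taken by gene symbol from a table of CPM (the counted reads of a gene per 1000000 reads of its library) that names 56092 genes. The members were chosen with earlier results of these data known. All 9 were in the table and all 9 reached at least 5 CPM in at least 2 libraries, as 12943 genes did.

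The let-7 microRNAs repress messenger RNAs that pair with their seed, the short stretch behind the first base of the microRNA. LIN28A and LIN28B are RNA-binding proteins that block the maturation of let-7 precursors, and Lin28a and Lin28b messages are themselves let-7 targets, so each side of this loop lowers the other. The loop was found in worms as a clock of developmental stages, and in mammals Lin28a is high in pluripotent cells and the early embryo and falls as tissues mature. The other members are known let-7 targets or partners of the same early state. HMGA1 and HMGA2 are chromatin proteins that bind AT-rich DNA, IGF2BP1 to IGF2BP3 bind and stabilise messages, TRIM71 is the vertebrate LIN-41, and MYCN is a growth-promoting transcription factor.

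All cells came from 1 mouse embryonic stem cell line, STR-KI, with 1 reporter allele at each of 2 genes, Sox2::mCherry/WT and Tbxt::GFP/WT. Sox2 marks neural progenitors and Tbxt (Brachyury) marks the mesodermal side. Cells were kept in N2B27 for 48 h with 10 ng/mL FGF2 and then for 24 h with FGF2 plus 5 µM of the Wnt agonist CHIR. Double-positive cells sorted at that point are the neuromesodermal progenitors (NMPs, 3 libraries), the cells of the caudal embryo that give rise to spinal cord and trunk mesoderm. Cells cultured further in FGF/CHIR were sorted at 48 h as Sox2::mCherry+ (Sox2 48 h, 2 libraries) or Tbxt::GFP+ (Tbxt 48 h, 2 libraries). At 7 d the Sox2::mCherry+ cells, after culture with FGF/CHIR or only FGF, were sorted a further time into mCherry+ and double-negative (DN) fractions: FGF/CHIR Sox2+ (1 library), FGF/CHIR DN (1 library), FGF Sox2+ (2 libraries) and FGF DN (1 library). The Tbxt::GFP+ cells had been kept in FGF/CHIR for 7 d and were sorted as double negative (Tbxt 7 d, 3 libraries). The labels do not say that libraries of a group came from separate cultures, so the tests measure the spread between these libraries, which may be technical. A group of 1 library has no replicate check, and its tests borrow the spread of the other groups.

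To show what the members share in sequence, the mature let-7 microRNAs follow, as RefSeq lists them for GRCm38.p6, 5′ to 3′, with the seed (bases 2 to 8) in capitals. There, 12 genes gave 10 mature microRNAs of this one seed, GAGGUAG. The 8 printed differ from each other outside it.
let-7a: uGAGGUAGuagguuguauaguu
let-7b: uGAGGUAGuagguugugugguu
let-7c: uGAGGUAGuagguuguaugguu
let-7d: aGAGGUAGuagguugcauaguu
let-7e: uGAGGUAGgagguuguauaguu
let-7g: uGAGGUAGuaguuuguacaguu
let-7i: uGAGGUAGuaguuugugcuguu
miR-98: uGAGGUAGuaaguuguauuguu

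LIN28 proteins hold a let-7 precursor by its loop, where GGAG is the known contact motif. GGAG stands between the arms of 9 of the 12 let-7 family hairpins listed and is missing there from let-7b, let-7c-2 and miR-98. The 2 hairpins shown lie within Mir100hg (let-7a-2, by the RefSeq interval) and Mir99ahg (let-7c-1, by the GENCODE M21 model), each in that 1 annotation only, with seed and GGAG in capitals (RefSeq, GRCm38.p6, let-7a-2 at chr9:41536716-41536811 and let-7c-1 at chr16:77599657-77599750, both on the plus strand).
let-7a-2: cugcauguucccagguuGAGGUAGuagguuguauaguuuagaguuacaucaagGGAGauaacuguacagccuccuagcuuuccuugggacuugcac
let-7c-1: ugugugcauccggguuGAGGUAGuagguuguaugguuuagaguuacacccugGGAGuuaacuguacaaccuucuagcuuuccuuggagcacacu

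The complement of the seed, CTACCTC (only the message strand was searched), was found in the 3′ UTR of 8 of the 9 members in the GENCODE M21 models of GRCm38. For each gene the transcript with the longest 3′ UTR was taken, and which transcripts these cells used was not checked. Mycn had no match. Lin28b, Hmga2, Igf2bp1 and Trim71 had 4 matches each, Lin28a had 2, and Hmga1, Igf2bp2 and Igf2bp3 had 1 each. With the extra A of a full site (CTACCTCA, which contains CTACCTC), 7 members matched, Trim71 at 4 places and Igf2bp1 at 3. The Trim71 matches at chr9:114509047-114509076 and chr9:114509021-114509050 lie outside the RefSeq interval of the gene (chr9:114511268-114564369). Among the 10930 tested genes with a 3′ UTR model, members included, 10.9% held CTACCTC and 3.87% held CTACCTCA. In all, 9 genes held 4 or more of the shorter match, with Lin28b, Hmga2, Igf2bp1 and Trim71 among them. The members were listed as let-7 targets or partners, so their share of matches was partly set by that choice. Long UTRs hold more matches by length alone: among the 6470 genes within the range of the members' UTR lengths the shares were 14.4% and 5.22%. A match is a description of the letters and does not show that let-7 acts there.

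The first match of each of these members is shown with 22 bases of its 5′ flank, as DNA of the message strand, with letters that pair with the let-7 seed, and the A behind it where there is one, in capitals. Coordinates are GRCm38 and the strand is that of the gene: Lin28a at chr4:134005189-134005218 (minus), Lin28b at chr10:45381022-45381051 (minus), Hmga1 at chr17:27563270-27563299 (plus), Hmga2 at chr10:120364224-120364253 (minus), Igf2bp1 at chr11:95961778-95961807 (minus), Igf2bp2 at chr16:22059473-22059502 (minus), Igf2bp3 at chr6:49086787-49086816 (minus) and Trim71 at chr9:114512472-114512501 (minus).
Lin28a: ttggagtgcacagcctgttgaaCTACCTCA
Lin28b: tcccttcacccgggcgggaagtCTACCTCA
Hmga1: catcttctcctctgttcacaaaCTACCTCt
Hmga2: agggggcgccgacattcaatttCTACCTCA
Igf2bp1: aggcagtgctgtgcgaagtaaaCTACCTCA
Igf2bp2: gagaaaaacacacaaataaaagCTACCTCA
Igf2bp3: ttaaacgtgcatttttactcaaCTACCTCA
Trim71: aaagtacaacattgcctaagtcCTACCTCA

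Depth could be read back from the steps of the CPM values. In units of 1000000 reads it was 3.43 to 9.88 in 14 libraries and 0.799 in FGF Sox2+ replicate 2, so 3 reads stood for 0.304 to 0.874 CPM in the former and for 3.76 CPM in the latter. The sorted genes followed the labels in the NMP, 48 h and Tbxt 7 d groups. Sox2 averaged 209.7 ± 40.5 CPM (SD, n = 3) in NMPs and 219 ± 2.62 (n = 2) in Sox2 48 h cells, against 36.3 ± 3.01 (n = 2) in Tbxt 48 h cells and 0.573 ± 0.776 (n = 3) in Tbxt 7 d cells. Tbxt averaged 387 ± 89.3 CPM in NMPs and 219 ± 4.64 in Tbxt 48 h cells, against 30.7 ± 1.98 in Sox2 48 h cells. It was 1.03 ± 0.939 in Tbxt 7 d cells, which were sorted without either reporter. The FGF DN library, sorted as double negative, still held Sox2 at 29.1 CPM, against 390 and 388 in FGF Sox2+. Its Tbxt was 20.4 CPM, above the 4.88 and 8.76 of FGF Sox2+. FGF/CHIR DN held Sox2 at 5.03 CPM and Tbxt at 1.14. The 6 mesenchyme markers summed to 5996 to 6916 CPM in Tbxt 7 d cells, against 37.1 to 53.8 in NMPs. The 7 neural progenitor markers summed to 1021 to 1467 CPM in FGF Sox2+ cells and 2.18 to 31.7 in Tbxt 7 d cells, where Sox1, Hes5 and Olig2 were at 0. The 6 pluripotency markers summed to 351 CPM in the FGF/CHIR DN library and 193 in the FGF DN library, against 245 to 370 in NMPs, 15.9 to 17.3 in Sox2 48 h cells, 3.93 to 4.89 in Tbxt 48 h cells and 56.7 to 213 in FGF Sox2+ cells. Their part in the results below was not tested. In sorted bulk samples, fewer cells with a message and less of it per cell cannot be told apart.

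Lin28a separated the groups most. Its level was 378, 363 and 392 CPM in NMPs, 341.8 and 345.1 in Sox2 48 h cells, 224 and 179 in Tbxt 48 h cells, 145 and 120 in FGF Sox2+ cells, 120 in FGF DN, 117 in FGF/CHIR Sox2+, 15.2 in FGF/CHIR DN and 0.44, 0.20 and 0.53 in Tbxt 7 d cells. No group overlapped the next in this order. FGF Sox2+, FGF DN and FGF/CHIR Sox2+ stood within the spread of the 2 FGF Sox2+ libraries of each other. Over group means its log2 range was 8.10, the widest of the 9 members. The Tbxt 7 d values rest on the equivalent of 1 to 2 reads in each library, rounded up to 5 reads in all.

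Lin28b, which acts on let-7 by the same contact, did not follow Lin28a at high levels. It stood at 49.8, 68.2 and 57.2 CPM in NMPs, 55.5 and 57.8 in Sox2 48 h, 64.9 and 81.7 in Tbxt 48 h, 57.6 in FGF/CHIR Sox2+ and 52.2 and 46.3 in FGF Sox2+. The lower set was 16.7 in FGF DN, 15.3 in FGF/CHIR DN and 6.11, 21.8 and 19.8 in Tbxt 7 d. Neighbours within the first 4 groups by mean overlapped, as did the lowest 3. The 3 groups sorted as double negative at 7 d lay below every other library.

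**Figure D1:**
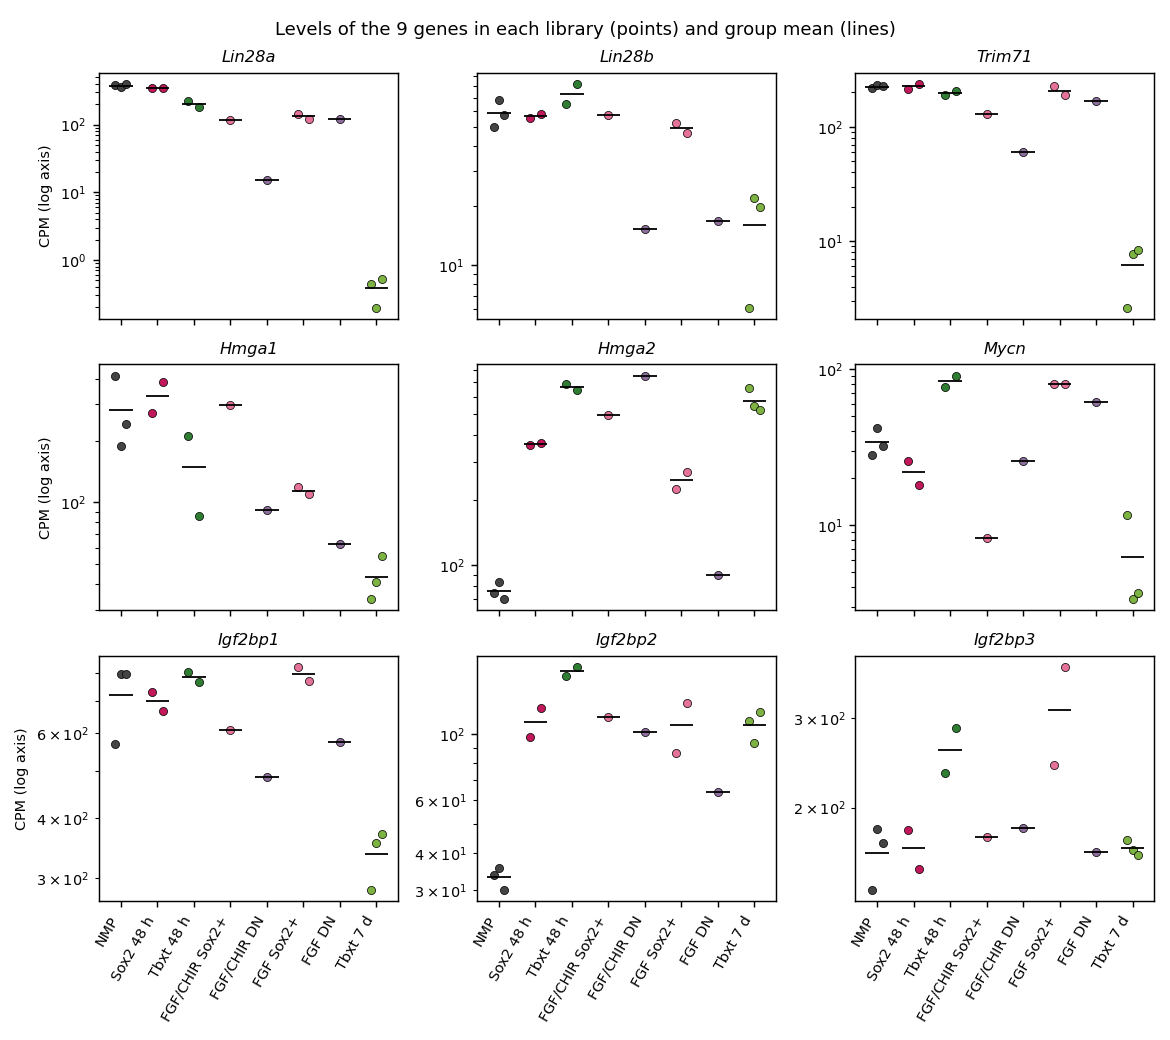
Level of each of the 9 genes in CPM (log axis) by group on the horizontal axis. Points are libraries and lines are group means. Lin28a and Trim71 are lowest in the 3 Tbxt 7 d libraries, while Hmga2 and Igf2bp2 are lowest in the 3 NMP libraries.

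Trim71, an RNA-binding ubiquitin ligase that keeps cells in an early state, was level across NMPs, both 48 h groups and FGF Sox2+ cells at 7 d. It measured 218, 232 and 226 CPM in NMPs, 216 and 235 in Sox2 48 h, 190 and 207 in Tbxt 48 h and 226 and 190 in FGF Sox2+. These 4 groups overlapped along their order. Below them came FGF DN with 169, FGF/CHIR Sox2+ with 131, FGF/CHIR DN with 60.003 and Tbxt 7 d with 2.62, 7.72 and 8.30 CPM.

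Hmga2 was lowest where Lin28a was highest, in NMPs. It was 74.5, 83.5 and 69.9 CPM in NMPs, 360 and 368 in Sox2 48 h, 686 and 646 in Tbxt 48 h, 492 in FGF/CHIR Sox2+, 750 in FGF/CHIR DN, 226 and 268 in FGF Sox2+, 89.9 in FGF DN and 654, 545 and 523 in Tbxt 7 d. The 3 NMP libraries were the lowest of all 15. The 2 double-negative libraries of Sox2 origin stood at the ends of its range at 7 d, with 8.34 times more Hmga2 in FGF/CHIR than in FGF alone, from 1 library each.

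Hmga1 was uneven within the early groups. It gave 415, 188 and 240 CPM in NMPs, 274 and 385 in Sox2 48 h, 211 and 86.3 in Tbxt 48 h, 298 in FGF/CHIR Sox2+, 91.8 in FGF/CHIR DN, 118 and 110 in FGF Sox2+, 62.7 in FGF DN and 33.9, 40.8 and 54.9 in Tbxt 7 d. All 3 Tbxt 7 d libraries lay below every other library. The near-identical gene Hmga1b took almost the same value everywhere, at an Hmga1 to Hmga1b ratio of 1.04 to 1.13, so reads of the pair cannot be assigned to one of them. With the pair summed, Hmga1 passed or missed the threshold in each comparison as it does alone.

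Among the IGF2BP genes, Igf2bp2 was low in NMPs, at 33.7, 35.5 and 29.96 CPM. It was 97.7 and 123 in Sox2 48 h, 157 and 168 in Tbxt 48 h, 115 in FGF/CHIR Sox2+, 102 in FGF/CHIR DN, 86.6 and 128 in FGF Sox2+, 63.8 in FGF DN and 111, 93.5 and 119 in Tbxt 7 d. Every other library was above the NMPs.

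Igf2bp1 varied less: 571, 797 and 796 CPM in NMPs, 731 and 667 in Sox2 48 h, 804 and 766 in Tbxt 48 h, 610 in FGF/CHIR Sox2+, 486 in FGF/CHIR DN, 823 and 771 in FGF Sox2+, 574 in FGF DN and 283, 355 and 370 in Tbxt 7 d. The Tbxt 7 d libraries were the lowest and did not overlap any other group. Igf2bp3 had the narrowest range, 0.90 in log2 over group means. It was 137, 181 and 170 CPM in NMPs, 181 and 151 in Sox2 48 h, 234 and 287 in Tbxt 48 h, 243 and 379 in FGF Sox2+ and 161 to 182 in the other 6 libraries. The Tbxt 48 h and FGF Sox2+ libraries stood above all the others.

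Mycn took graded levels that did not follow time. The highest were Tbxt 48 h with 76.8 and 91.0 CPM, FGF Sox2+ with 80.3 and 80.1 and FGF DN with 61.9. The other values were 28.3, 42.3 and 32.2 in NMPs, 25.8 in FGF/CHIR DN, 25.7 and 18.1 in Sox2 48 h, 8.33 in FGF/CHIR Sox2+ and 11.6, 3.37 and 3.69 in Tbxt 7 d. Among Sox2+ cells at 7 d, Mycn was 9.63 times higher in FGF alone than in FGF/CHIR, where the latter is 1 library.

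Tests used limma on log2(CPM + 1), over all genes with Benjamini-Hochberg adjustment and a threshold of 0.05. Values given as x ± y below are log2 fold changes on that scale with their SE, and adjusted p-values are over all 12943 genes. Comparisons that use the same group share its libraries and are not independent of each other.

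The first question was what changes as NMPs go to either side within 48 h. In Sox2 48 h cells 2 of 9 members rose from NMPs, where 2.65% of all genes rose, 5.27% fell and 7.92% did either. Hmga2 rose by 2.25 ± 0.13 (adjusted p = 1.6e-06, 4.79-fold in mean CPM) and Igf2bp2 by 1.70 ± 0.18 (adjusted p = 9.5e-05, 3.33-fold). Each was higher in both Sox2 48 h libraries than in every NMP library. The other 7 did not pass, with Lin28a at -0.14 ± 0.15 (adjusted p = 0.70) and Trim71 at 0.00 ± 0.31. The median over the 9 members was 0.00, against -0.01 over all genes. Of the 6 pluripotency markers, 4 fell and none rose in this comparison (median -2.44), and their part was not tested.

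In Tbxt 48 h cells 4 members rose and 1 fell, where 7.82% of all genes rose, 10.5% fell and 18.4% did either. Hmga2 rose by 3.12 ± 0.13 (adjusted p = 4.2e-08) and Igf2bp2 by 2.27 ± 0.18 (adjusted p = 8.6e-06), 8.77-fold and 4.92-fold in mean CPM. Igf2bp3 rose by 0.68 ± 0.19 (adjusted p = 0.024) and Mycn by 1.28 ± 0.38 (adjusted p = 0.037). Lin28a fell by 0.91 on the log2 scale (SE 0.15, adjusted p = 0.0016), which is 1.87-fold in mean CPM. All 6 pluripotency markers, a state in which Lin28a is high, fell in the same comparison (median -3.68), and their part in the fall of Lin28a was not tested. The medians were 0.33 over the members and -0.02 over all genes. The rises of Igf2bp3 and Mycn did not pass without Tbxt 48 h replicate 2, at adjusted p = 0.258 and 0.254, nor without NMP replicate 1, at 0.0852 and 0.123, nor without NMP replicate 3, at 0.0519 and 0.0953. Mycn also missed without Tbxt 48 h replicate 1, at 0.0929.

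Set directly against each other at 48 h, the Tbxt and Sox2 cells differed in 3 of 9 members, 2 higher and 1 lower in Tbxt cells, where 2.05% of all genes were higher, 1.85% lower and 3.9% either. Hmga2 was higher in Tbxt cells by 0.87 ± 0.14 (adjusted p = 0.0048) and Mycn by 1.91 ± 0.42 (adjusted p = 0.027), 1.83-fold and 3.83-fold in mean CPM. Lin28a was lower there, at -0.77 ± 0.17 (adjusted p = 0.024). Lin28b did not pass, at 0.36 with a 95% interval from -0.59 to 1.30. The Hmga2 difference passed without any one library. For Lin28a and Mycn it did not pass without Tbxt 48 h replicate 2 (adjusted p = 0.301 and 0.255) or Sox2 48 h replicate 2 (0.179 and 0.235), for Lin28a without Sox2 48 h replicate 1 (0.0837), or for Mycn without Tbxt 48 h replicate 1 (0.0783).

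**Figure D2:**
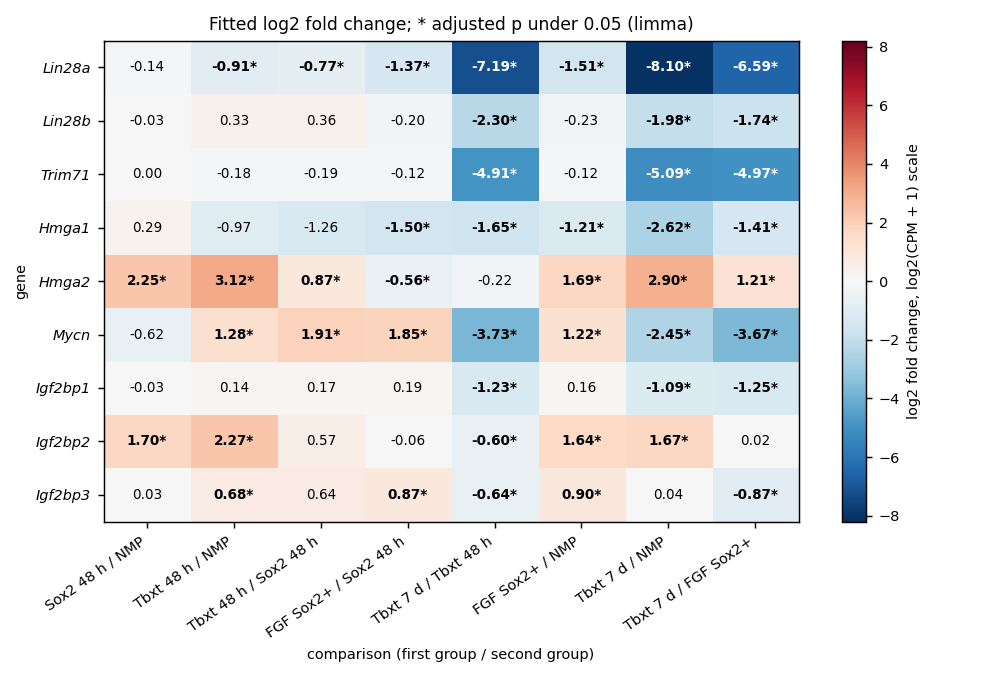
Fitted log2 fold change of each gene (rows) in 8 comparisons (columns), coloured from blue (lower) to red (higher), with an asterisk where the adjusted p was under 0.05. Lin28a has the darkest blue, -8.10 in Tbxt 7 d cells against NMPs, and Hmga2 is red in every comparison with NMPs.

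From 48 h to 7 d on the Tbxt side, 8 of 9 members fell, where 23.5% of all genes fell, 30.7% rose and 54.2% did either. Their median was -1.65, against 0.09 over all genes. Lin28a fell most, at -7.19 ± 0.15 (adjusted p = 1.1e-11). Because its late level is at most 5 reads in all, the fitted value depends on the added 1 CPM. By reads, rounded to whole numbers here and below, the ratio of Tbxt 48 h to Tbxt 7 d was 509. Its 95% counting interval of 218 to 1569 covers counting error only, and not all read numbers were whole before rounding. Against NMPs the ratio was 931, with an interval of 399 to 2869.

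Trim71 was next, at -4.91 ± 0.31 (adjusted p = 2.7e-07), 31.9-fold lower in mean CPM. Mycn fell 13.5-fold, at -3.73 ± 0.38 (adjusted p = 9.0e-06), and Lin28b 4.62-fold, at -2.30 ± 0.39 (adjusted p = 4.9e-04). Igf2bp1 fell 2.34-fold (-1.23 ± 0.16, adjusted p = 3.3e-05). Hmga1 fell 3.44-fold (-1.65 ± 0.39, adjusted p = 0.0046). The falls of Igf2bp3 (-0.64 ± 0.19, adjusted p = 0.011) and Igf2bp2 (-0.60 ± 0.18, adjusted p = 0.013) were small. Without Tbxt 48 h replicate 2, Igf2bp2 (-0.55, adjusted p = 0.0857) and Igf2bp3 (-0.49, adjusted p = 0.118) did not pass, and without Tbxt 48 h replicate 1, Hmga1 did not (-1.01, adjusted p = 0.0576). Hmga2 was the 1 member that did not pass, at -0.22 ± 0.13 (adjusted p = 0.18).

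Against the NMPs themselves, the Tbxt 7 d cells had 6 members lower and 2 higher, where 29.7% of all genes were lower, 33.0% higher and 62.7% either. Hmga2 and Igf2bp2 were 7.56-fold and 3.25-fold higher (2.90 ± 0.12 and 1.67 ± 0.16, adjusted p = 1.4e-09 and 2.0e-06). Trim71 was 36.2-fold lower, Hmga1 6.50-fold and Lin28b 3.68-fold. Igf2bp3 did not pass, at 0.04 ± 0.17. These 8 calls held without any one library. Relative to NMPs, Tbxt 7 d cells thus had less of Lin28a, Lin28b and Trim71 and more of Hmga2 and Igf2bp2.

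On the Sox2 side the change from 48 h to 7 d in FGF alone was smaller for Lin28a. In FGF Sox2+ cells 3 members fell and 2 rose from Sox2 48 h, where 6.51% of all genes fell, 18.2% rose and 24.7% did either. Lin28a fell by 1.37 on the log2 scale (SE 0.17, adjusted p = 1.4e-04), 2.59-fold in mean CPM. Hmga1 fell 2.89-fold (-1.50 ± 0.43, adjusted p = 0.028) and Hmga2 moved by -0.56 ± 0.14 (adjusted p = 0.014). Mycn rose 3.66-fold (1.85 ± 0.42, adjusted p = 0.0081) and Igf2bp3 1.87-fold (0.87 ± 0.20, adjusted p = 0.0083). Trim71 (-0.12, 95% interval -0.87 to 0.63), Lin28b (-0.20, -1.15 to 0.75), Igf2bp1 and Igf2bp2 did not pass. In the same comparison 4 of 6 pluripotency markers and 5 of 5 tested neuron markers rose and none fell (medians 2.31 and 4.30). The 6 neuron markers summed to 185 to 629 CPM in FGF Sox2+ cells against 19.9 to 33.7 in Sox2 48 h cells, with Dcx at 0 in both libraries of the latter, and the part of such cells was not tested. Only the fall of Lin28a passed without each library in turn. Without Sox2 48 h replicate 2 the adjusted p was 0.163 for Hmga1, 0.0831 for Hmga2, 0.0847 for Igf2bp3 and 0.0729 for Mycn. Without FGF Sox2+ replicate 2, the shallow library, it was 0.114 for Hmga1 and 0.093 for Igf2bp3. Without Sox2 48 h replicate 1 it was 0.0512 for Hmga1 and 0.0547 for Hmga2, and without FGF Sox2+ replicate 1 it was 0.0754 and 0.0921.

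The medium changed along that path, from FGF/CHIR to FGF alone. The 1 FGF/CHIR Sox2+ library allows the same step within 1 medium, a comparison added after the data were seen, with that library assumed to vary like the others. There, 1 of 9 members passed, where 0.17% of all genes fell, 1.64% rose and 1.81% did either: Lin28a fell, at -1.54 ± 0.21 (adjusted p = 0.00211). Mycn was -1.28 ± 0.51 (adjusted p = 0.303) and Hmga2 0.43 ± 0.18 (adjusted p = 0.306), each with the sign opposite to that in FGF alone. Igf2bp3 was 0.08 ± 0.25 and Hmga1 -0.12 ± 0.53. Trim71 was -0.78 ± 0.42 (adjusted p = 0.474).

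Relative to NMPs the FGF Sox2+ cells differed in 6 members, 4 higher and 2 lower, where 17.8% of all genes were higher, 8.21% lower and 26.0% either. Hmga2 (1.69 ± 0.13), Igf2bp2 (1.64 ± 0.18), Igf2bp3 (0.90 ± 0.19) and Mycn (1.22 ± 0.38, adjusted p = 0.035) were higher, and Lin28a (-1.51 ± 0.15) and Hmga1 (-1.21 ± 0.39, adjusted p = 0.044) lower. In the FGF/CHIR Sox2+ library 2 members were higher and 2 lower than in NMPs, where 5.86% of all genes were higher, 3.87% lower and 9.73% either. They were Hmga2 (2.68), Igf2bp2 (1.77), Lin28a (-1.68) and Mycn, which was lower there (-1.90 ± 0.48, adjusted p = 0.028). The calls of Mycn and Hmga1 in FGF alone were lost without NMP replicate 1 (adjusted p = 0.111 and 0.135), NMP replicate 3 (0.0884 and 0.0793), FGF Sox2+ replicate 1 (0.113 and 0.113) or FGF Sox2+ replicate 2 (0.148 and 0.183), and Igf2bp3 without the last (0.0681). Hmga2 and Igf2bp2 were thus above NMPs, and Lin28a below, in Sox2+ cells of either medium.

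Whether the 2 courses from 48 h to 7 d differ was tested as 1 contrast, the Tbxt change minus the Sox2 change. For 6 of 9 members it was lower on the Tbxt side, where 19.4% of all genes were lower, 14.2% higher and 33.6% either. Lin28a differed by -5.82 ± 0.23 (adjusted p = 3.5e-08), Mycn by -5.58 ± 0.56 (adjusted p = 3.8e-05) and Trim71 by -4.78 ± 0.46 (adjusted p = 3.1e-05). Lin28b (-2.10 ± 0.58, adjusted p = 0.018), Igf2bp3 (-1.51 ± 0.28, adjusted p = 0.0014) and Igf2bp1 (-1.42 ± 0.23, adjusted p = 7.3e-04) also differed. Hmga1 (-0.15 ± 0.58), Hmga2 (0.34 ± 0.20, adjusted p = 0.19) and Igf2bp2 (-0.54 ± 0.27, adjusted p = 0.13) did not pass. Without Tbxt 48 h replicate 2 or FGF Sox2+ replicate 1, Lin28b did not pass (adjusted p = 0.0775 and 0.0569).

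**Figure D3:**
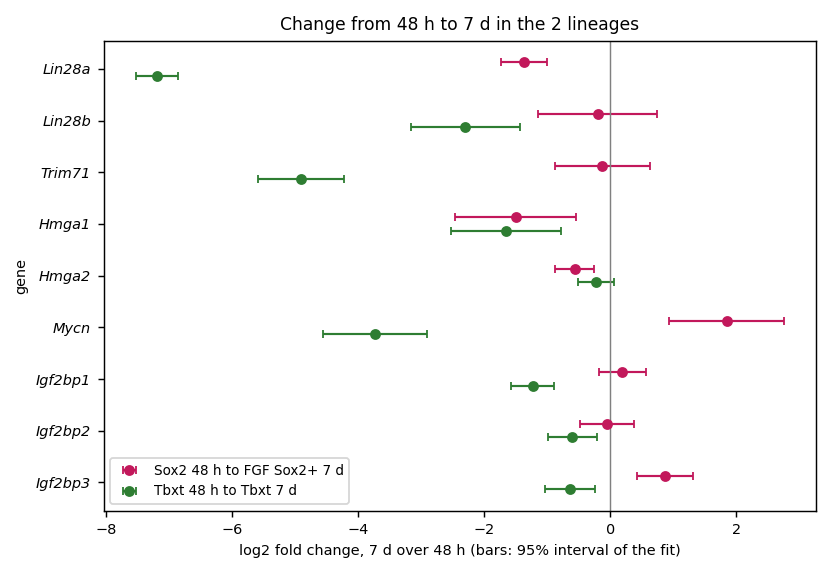
Log2 fold change from 48 h to 7 d (horizontal axis) for each gene (vertical axis), in magenta from Sox2 48 h to FGF Sox2+ cells and in green from Tbxt 48 h to Tbxt 7 d cells, with 95% intervals of the fit. The intervals of Lin28a, Trim71, Lin28b, Mycn, Igf2bp1 and Igf2bp3 lie apart, and those of Hmga1, Hmga2 and Igf2bp2 overlap.

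The courses end in different media and through different gates, mCherry+ in FGF alone and double negative in FGF/CHIR. With the FGF/CHIR Sox2+ library as the Sox2 end point, both courses stay in FGF/CHIR. Then 5 members were lower on the Tbxt side, where 8.61% of all genes were lower, 7.72% higher and 16.3% either: Lin28a (-5.65 ± 0.26, adjusted p = 1.01e-07), Trim71 (-4.12 ± 0.52, adjusted p = 4.59e-04), Mycn (-2.46 ± 0.64, adjusted p = 0.0228), Lin28b (-2.32 ± 0.66, adjusted p = 0.0342) and Igf2bp1 (-1.04 ± 0.26, adjusted p = 0.0184). Igf2bp3 did not pass (-0.72 ± 0.31, adjusted p = 0.14). The gate and the origin of the cells cannot be told apart in either form.

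Side by side at 7 d, Tbxt 7 d cells had 7 members lower than FGF Sox2+ cells and Hmga2 2.33-fold higher (1.21 ± 0.13, adjusted p = 1.2e-05), where 26.5% of all genes were lower, 21.1% higher and 47.6% either. Trim71 was 33.5-fold lower and Mycn 12.9-fold, and Lin28a had a read ratio of 347 (interval 148 to 1072). Igf2bp2 did not pass, at 0.02, and Hmga1 did not without FGF Sox2+ replicate 1 or replicate 2 (adjusted p = 0.0684 and 0.0509). Against the FGF/CHIR Sox2+ library 5 members were lower, where 16.9% of all genes were lower, 15.1% higher and 32% either. Those 5 were Lin28a, Trim71, Hmga1, Lin28b and Igf2bp1, while Mycn (-0.55 ± 0.48, adjusted p = 0.415) and Hmga2 (0.22, adjusted p = 0.351) did not pass. Igf2bp3 did not pass either (-0.07, adjusted p = 0.841), after -0.87 (adjusted p = 0.0020) against FGF Sox2+. The Mycn, Hmga2 and Igf2bp3 differences at 7 d therefore passed against cells in FGF alone and not against cells in FGF/CHIR.

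The gate could be compared within Sox2-derived cells, as the 2 double-negative libraries against the Sox2+ libraries of the same media, averaged over media. Lin28a (-1.50 ± 0.16, adjusted p = 5.2e-05) and Lin28b (-1.67 ± 0.40, adjusted p = 0.019) were lower in double-negative cells, 2 of 9 members, where 6.99% of all genes were lower, 7.12% higher and 14.1% either. Without FGF Sox2+ replicate 1, 5 members were lower, with Hmga2, Igf2bp2 and Igf2bp3 added. Hmga2 and Igf2bp3 were not lower in both media. Their ratio of Sox2+ to double-negative cells was 0.656 and 0.960 in FGF/CHIR, and 2.75 and 1.90 in FGF alone. The Lin28a average also covers unlike values. In FGF/CHIR it was 7.71 times lower in double-negative cells, and in FGF alone 1.11 times, while Lin28b was 3.76 and 2.95 times lower. The 2 double-negative libraries also differed in their other cells: mesenchyme markers summed to 2254 CPM in FGF/CHIR DN and 391 in FGF DN, and the 4 endoderm markers to 82.1 and 553. The part of these cells was not tested.

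With gate and medium matched, Tbxt 7 d cells stood against the 1 FGF/CHIR DN library. Lin28a (-3.55 ± 0.20, adjusted p = 7.3e-07), Trim71 (-3.20 ± 0.40, adjusted p = 3.7e-04) and Mycn (-2.07 ± 0.48, adjusted p = 0.014) were lower in Tbxt 7 d cells, 3 of 9 members, where 8.86% of all genes were lower, 7.88% higher and 16.7% either. By reads Lin28a was 37.6 times lower, with a counting interval of 15.3 to 120. Lin28b (-0.12), Hmga2 (-0.39, adjusted p = 0.13) and Igf2bp2 (0.07) did not pass. The spread came from the groups of more than 1 library, and FGF/CHIR DN added none to it. When these 4 libraries were fitted alone no member passed, and Lin28a no longer met the filter. Pluripotency markers summed to 351 CPM in FGF/CHIR DN and 1.19 to 3.93 in Tbxt 7 d cells. Lin28a is itself high in pluripotent cells, and the part of such cells in the difference was not tested.

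Libraries primed on poly(A) tails do not measure the short mature let-7, and the rows named as let-7 genes were at or near 0. What they do hold is the long transcripts whose gene spans a let-7 hairpin, found by annotation after the member values were known. Their level is not the level of the mature microRNA. In the RefSeq table for GRCm38.p6, Mir100hg (chr9:41376526-41615185) spans let-7a-2, where GENCODE M21 names 3110039I08Rik and Gm49317 instead. Mir99ahg spans let-7c-1 in GENCODE M21, while its RefSeq interval (chr16:77329328-77558428) ends before that hairpin. Which of these models the counting used was not given in the sources.

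Mir100hg was 0.91, 0.64 and 0.87 CPM in NMPs, 2.65 and 1.14 in Sox2 48 h, 0.66 and 0.72 in Tbxt 48 h, 25.9 in FGF/CHIR Sox2+, 85.4 in FGF/CHIR DN, 9.77 and 26.3 in FGF Sox2+, 11.97 in FGF DN and 401, 326 and 364 in Tbxt 7 d. Every 7 d library was above every earlier one, and the 3 Tbxt 7 d libraries were highest. Mir99ahg was 0.26, 0.48 and 0.23 CPM in NMPs, 1.01 and 1.14 in Sox2 48 h, 0.51 and 0.34 in Tbxt 48 h, 11.0 in FGF/CHIR Sox2+, 9.60 in FGF/CHIR DN, 18.2 and 30.05 in FGF Sox2+, 2.68 in FGF DN and 68.1, 67.2 and 73.7 in Tbxt 7 d. It had the same separation by time.

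No library before 7 d reached 5 CPM of Mir100hg or Mir99ahg, so both met the filter only through 7 d libraries. Their rises to 7 d are therefore given with no p-value. From Tbxt 48 h to Tbxt 7 d, Mir100hg rose by 7.75 ± 0.33 and Mir99ahg by 5.64 ± 0.26. By reads the ratios were 515 (interval 288 to 1032) and 157 (75.8 to 391), since the early values of these genes rest on few reads. From Sox2 48 h to FGF Sox2+, Mir99ahg rose by 3.56 ± 0.28 and Mir100hg by 2.62 ± 0.36, with read ratios of 18.5 (9.40 to 41.5) and 6.34 (3.63 to 11.7). The rise was larger on the Tbxt side for both, by 5.13 ± 0.49 for Mir100hg (adjusted p = 1.8e-05) and 2.08 ± 0.38 for Mir99ahg (adjusted p = 0.0015). Both belong to clusters that also hold miR-100 or miR-99 and miR-125 family members.

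**Figure D4:**
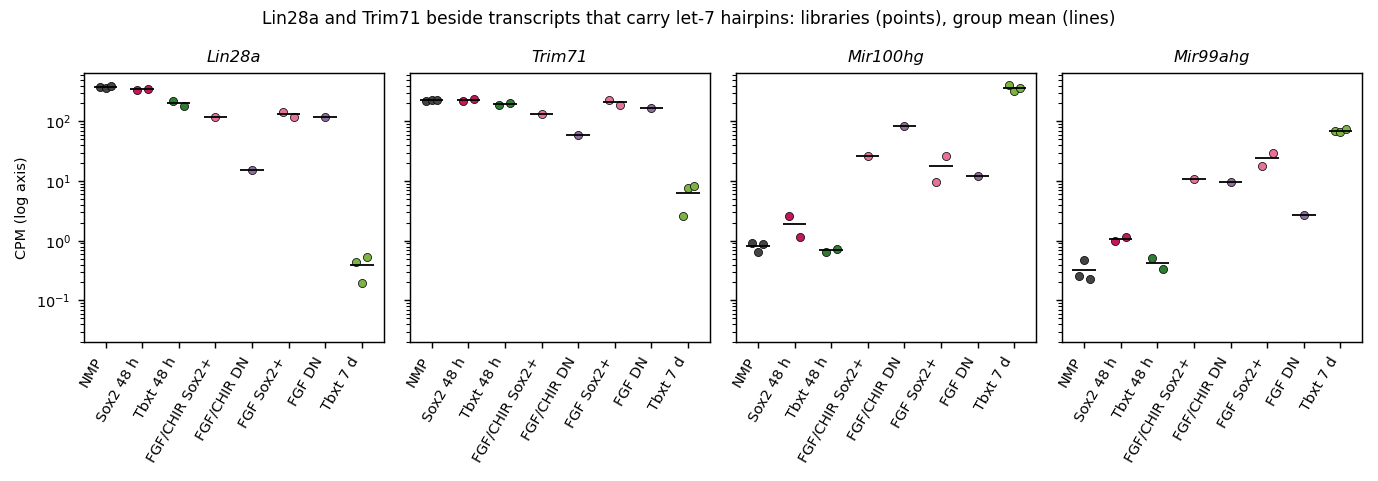
Lin28a, Trim71, Mir100hg and Mir99ahg in CPM (shared log axis) by group; points are libraries and lines are group means. In Tbxt 7 d cells Lin28a lies at 0.20 to 0.53 CPM and Mir100hg at 326 to 401, the reverse of NMPs, where Lin28a lies at 363 to 392 and Mir100hg at 0.64 to 0.91.

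Of the other genes that span a let-7 hairpin, Spaca6 (let-7e) rose by 3.56 ± 0.32 from Tbxt 48 h to Tbxt 7 d. Spaca6 also met the filter only through 7 d libraries, so no p-value is given for its rises to 7 d. Wdr82 (let-7g) rose by 0.62 ± 0.17 (adjusted p = 0.0083) and 6720427I07Rik (let-7d, let-7f-1 and let-7a-1) by 0.65 ± 0.26 (adjusted p = 0.049). Huwe1, which spans let-7f-2 and miR-98, did not pass (-0.32, adjusted p = 0.13). Spaca6 went from 1.30 CPM in Tbxt 48 h to 25.8 ± 8.19 (SD, n = 3) in Tbxt 7 d. Lncppara, which spans let-7c-2 and let-7b, was 6.55, 8.02 and 10.7 CPM in Tbxt 7 d cells and at most 0.69 in any other library. It met the filter only through the Tbxt 7 d libraries, so its values are given with no test. On the Sox2 side in FGF alone, Spaca6 (2.51 ± 0.35) and Wdr82 (0.86 ± 0.19, adjusted p = 0.0060) rose, and 6720427I07Rik and Huwe1 did not pass. Between the courses Spaca6 did not pass (1.05, adjusted p = 0.11).

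The gene lists that follow are described by their counts, to be read against the shares of all genes given above for each comparison. These lists too were chosen with earlier results of these data known, so their counts are not independent support. For the machinery that makes and uses microRNAs, of 18 genes tested from a list of 19, none passed from NMPs to Sox2 48 h and 2 rose to Tbxt 48 h, Ago2 (1.08) and Tnrc6a (0.54). From Tbxt 48 h to Tbxt 7 d 4 rose and 4 fell, 8 of 18 where 54.2% of all genes changed. Tnrc6c, a partner of Argonaute in silencing, rose by 1.43 ± 0.15, from 55.8 CPM to 152 ± 20. Xpo5, which exports precursors from the nucleus, fell by 1.11 on the log2 scale (SE 0.17), from 107 CPM to 49.1. Tarbp2, a Dicer partner, was at -0.82 and Tnrc6b at 0.71. In the Sox2 course in FGF alone 1 rose and 1 fell: Tut7, an enzyme that adds uridines to let-7 precursors held by LIN28, at 0.75 ± 0.25, and Drosha, which cuts the primary transcripts, at -0.87 ± 0.23. Between the courses 2 were higher on the Tbxt side, Tnrc6c (1.07) and Drosha (1.01), and Xpo5 (-0.88) was lower. In double-negative against Sox2+ cells 7 were lower and none higher, led by Dis3l2, the nuclease that removes uridylated let-7 precursors (-1.06), Ago1 (-0.94), Tut4 (-0.79) and Dicer1 (-0.70).

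A list of 24 other genes known as let-7 targets, 23 of them tested, had 15 lower and none higher from Tbxt 48 h to Tbxt 7 d, with a median of -0.89, against 0.09 over all genes. The largest were Nr6a1 (-4.72 ± 0.26), an orphan receptor of the trunk stage, Myc (-4.43 ± 0.66), Arid3b (-4.36 ± 0.17) and Igdcc3 (-3.25 ± 0.30). Nr6a1 went from 989 ± 190 CPM in NMPs through 215 ± 74 in Tbxt 48 h to 7.24 ± 2.5 in Tbxt 7 d, and it was already 99.7 ± 10 in Sox2 48 h. Arid3b, a DNA-binding protein, averaged 141 CPM in NMPs, 122 in Tbxt 48 h, 62.8 in FGF Sox2+ and 5.01 in Tbxt 7 d. In the Sox2 course in FGF alone 5 rose, among them Mycl (1.74) and Nr6a1 (1.10), and 4 fell, among them Cdk6 (-1.49) and Arid3b (-1.16). Between the courses 13 were lower on the Tbxt side and none higher, with a median of -1.16, against -0.07 over all genes, led by Nr6a1 (-5.82), Myc (-3.40), Igdcc3 (-3.21) and Arid3b (-3.20). From NMPs 5 rose and 2 fell to Sox2 48 h and 9 rose and 3 fell to Tbxt 48 h, where Nr6a1 was lower in both (-3.29 and -2.22). In double-negative against Sox2+ cells 8 were lower and none higher, with Igdcc3 at -2.27 and Arid3b at -1.82.

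Proliferation genes, 12 of them, moved in the same comparison as the fall of the members and are given for that reason. From Tbxt 48 h to Tbxt 7 d 10 fell and none rose. Ccne1, a cyclin of entry into DNA replication, went from 150 CPM to 30.5 (-2.38), and Pcna, the replication clamp, from 388 to 145 (-1.44). In the Sox2 course in FGF alone 7 rose and none fell, led by the division gene Mki67 (1.37) and the mitotic cyclin Ccnb1 (1.18). Between the courses 11 were lower on the Tbxt side. Their part in the difference of the timing genes was not tested.

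Around Mycn, 11 genes of the MYC network had 4 higher and 2 lower from Tbxt 48 h to Tbxt 7 d, a share near the 54.2% of all genes that changed. Myc fell (-4.43), from 81.3 CPM to 4.18 ± 5.5, together with Mycn, and the MAX-binding antagonists Mxd3 (3.03), Mxd4 (2.46) and Mxd1 (1.21) rose. In the Sox2 course in FGF alone 3 rose and none fell. Between the courses 2 were lower on the Tbxt side, Myc (-3.40) and Mycl (-2.10), and Mxd4 (1.72) was higher.

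Beside Igf2bp1 to Igf2bp3, 7 genes of the insulin-like growth factor pathway were tested. Igf2, the ligand whose message gave the family its name, was 64.3 CPM in NMPs, 616 in Sox2 48 h and 1662 in Tbxt 48 h, rises of 3.25 and 4.68. It was the 1 gene of the list that rose in Sox2 48 h cells, while in Tbxt 48 h cells Irs1 (1.55), Igf1r (1.10) and Igf2r (0.98) rose as well. In Tbxt 7 d cells 6 of 7 were above NMPs and none below, with Igf2 at 5.04 and Igf1 at 4.01. From Tbxt 48 h to Tbxt 7 d 3 rose and 1 fell.

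Among relatives of Trim71 in the TRIM-NHL family, Trim3 rose from Tbxt 48 h to Tbxt 7 d (1.51), and Trim2, Trim3 and Trim32 were all above NMPs in Tbxt 7 d cells (0.73, 1.23 and 0.51). None of the 3 fell there.

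Lists of other timed genes were set beside the members. Of 6 genes of the trunk-to-tail switch, Hoxa13 rose (3.97), and Nr6a1 (-4.72) and Gdf11 (-1.23) fell, from Tbxt 48 h to Tbxt 7 d. Of 6 tested genes from a list of factors that mark timing in neural tissue, 5 rose in that step: Nfix (5.67), Nfia (5.19), Nfib (4.48), Sox9 (1.97) and Zbtb20 (1.78). Nfia, a nuclear factor I gene, went from 16.9 CPM to 656 ± 95. In the Sox2 course in FGF alone 3 rose, Sox9 (2.89), Onecut2 (2.50) and Zbtb20 (1.45), while Nfia was 26.2 CPM at 48 h and 21.8 at 7 d. That list is named for neural tissue, and Tbxt 7 d cells held neural progenitor markers at no more than 31.7 CPM in sum.

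Across the 8 group means, Lin28a and Trim71 had a Pearson correlation of 0.977 in log2, Igf2bp1 and Trim71 0.943, Lin28a and Igf2bp1 0.930, and Hmga2 and Igf2bp2 0.867. Lin28a and Hmga2 had -0.475. These are descriptions over 8 points that share libraries, and in the first 3 the Tbxt 7 d group stands far from the rest. The genes most alike to a member, over 7496 candidates and the same 8 points, were Heatr1 (0.98), Thyn1 and E2f4 for Lin28a, Psip1 (0.98), Prmt7 and Nsmaf for Lin28b, Nhp2 (0.996), Ppat and Naf1 for Trim71, and Crnkl1 (0.95), Asb13 and Lrr1 for Mycn. For Hmga2 they were Rcbtb2 (0.98), Vgll4 and Fjx1, for Igf2bp1 Qrsl1 (0.99), Mir17hg and Rpf1, and for Igf2bp2 Pafah1b2 (0.98), Trim44 and Ppp3ca. For Hmga1 they were Hmga1b (1.00), which shares its reads, Dctpp1 (0.99) and Pdss2. Igf2bp3 varied too little to be matched.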

How the data were processed

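RNA of 15 sorted libraries was made into oligo-dT primed, tagmented libraries with UMIs, per the labels' protocols. STAR 2.7, SAMtools 1.21 and GRCm39 are named in the submitters' processing notes. The annotation, the counter and the use of UMIs were not given in the sources used here. CPM were deposited by the authors, each library summing to 1000000. The CPM steps gave whole reads for 71.1 to 78.7% of values (within 0.01), too few for a count test.

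Rows sharing a symbol were summed. Unnamed and spike-in rows (1.10 to 1.81% of CPM) were left out. The fit took genes that reached 5 CPM or more in 2 or more libraries, as log2(CPM + 1), computed here from the deposited CPM, and used limma 3.58.1 (trend, robust; R 4.3.3, statmod 1.5.0) over all 8 groups, 7 residual degrees of freedom. The scripts were tested on simulated data. Sequences came from RefSeq (GRCm38.p6) and GENCODE M21 tables, whose build differs from GRCm39.

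Named genes were the 9 members, up to 4 passing genes per list and comparison with the largest change and a group mean of at least 10 CPM, the 3 genes most alike to each member that ranged over at least 1 log2 unit, Sox2, Tbxt and marker sums. Host genes of let-7 were added by annotation. Tut7 and Dis3l2 are also named for their role, chosen after their values were seen. The members and lists were chosen with earlier results of these data known. Alternatives covered pseudocount, filter, scaling, weights, groups fitted, left-out libraries and the replicate block.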

Additional observations from a re-analysis of the deposited data

Results flagged for a closer look

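The change from 48 h to 7 d differed between Tbxt-derived and Sox2-derived cells in the test of the difference itself (limma, adjusted over all genes) for 6 members. Each difference is the Tbxt change minus the Sox2 change on the log2 scale. It was -5.82 for Lin28a, -5.58 for Mycn, -4.78 for Trim71, -2.10 for Lin28b, -1.51 for Igf2bp3 and -1.42 for Igf2bp1. For Mycn and Igf2bp3 the courses ran in opposite directions, higher at 7 d on the Sox2 side and lower on the Tbxt side, with each change past the threshold. The Sox2 course ended in FGF alone and the Tbxt course in FGF/CHIR. With the 1 FGF/CHIR Sox2+ library as the end point, the Sox2 change itself was -1.28 for Mycn and 0.08 for Igf2bp3, neither past the threshold, so the opposite directions were not seen. Mycn then differed by -2.46 between the courses and Igf2bp3 by -0.72, the latter with adjusted p = 0.14.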

How the results depend on the processing

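Of 56 calls of members in 99 tests, 34 held in every alternative run for them, and 750 of the 820 alternatives of these calls kept the call. In all, 66 values kept their direction and lost the threshold, 39 of them with a library left out, and 41 changed sign, 4 of these in called members. The cause was not tested in any of these. The number of members past the threshold moved as follows. In Tbxt 48 h against NMPs it was 5, 3 without the filter and 3 to 5 with a library left out. In Tbxt 48 h against Sox2 48 h it was 3, 1 without the filter, 5 with the compared groups fitted alone and 1 to 3 with a library left out. In FGF Sox2+ against Sox2 48 h it was 5, and 1 to 3 with a library left out. In FGF Sox2+ against NMPs it was 6, and 3 to 6. In double-negative against Sox2+ cells it was 2, 8 with array weights, 5 with the compared groups alone and 2 to 5 with a library left out. In Tbxt 7 d against FGF/CHIR DN it was 3, 5 with array weights, 0 with the compared groups alone, where fewer libraries and genes enter, and 3 to 4 with a library left out. Elsewhere, leaving out a library gave 6 to 8 of 8 (Tbxt 7 d against Tbxt 48 h), 7 to 8 of 8 (against FGF Sox2+), 8 to 8 of 8 (against NMPs), 5 to 6 of 6 (between the courses) and 2 to 2 of 2 (Sox2 48 h against NMPs).

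With the FGF/CHIR Sox2+ library in place of FGF Sox2+, chosen after seeing the data, the number was 1 against Sox2 48 h, 4 against NMPs, 5 in Tbxt 7 d against it and 5 between the courses. Signs changed there against Sox2 48 h for Lin28b (0.022), Hmga2 (0.43), Igf2bp1 (-0.19), Igf2bp2 (0.068) and Mycn (-1.28), against NMPs for Hmga1 (0.17), Igf2bp1 (-0.22) and Mycn (-1.90), in Tbxt 7 d against it for Igf2bp2 (-0.099), and between the courses for Hmga2 (-0.65).

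The other changes of sign were of values near 0 that did not pass, with Lin28b against FGF/CHIR DN and Hmga1 between the courses moving furthest. In Sox2 48 h against NMPs they were Igf2bp3 (-0.0058 with quantile normalization, -0.040 with array weights) and Trim71 (-0.0020 with array weights). Array weights also turned Igf2bp1 in Tbxt 48 h against NMPs (-0.013), Igf2bp3 in Tbxt 7 d against NMPs (-0.056, and -0.041 with median-of-ratios scaling) and Lin28b in Tbxt 7 d against FGF/CHIR DN (0.29). With a library left out, the ranges that crossed 0 were, in Sox2 48 h against NMPs, Igf2bp3 -0.097 to 0.16, Trim71 -0.057 to 0.065, Lin28b -0.14 to 0.085 and Igf2bp1 -0.19 to 0.051, and in Tbxt 48 h against NMPs, Igf2bp1 -0.021 to 0.22. In FGF Sox2+ cells they were Igf2bp2 -0.33 to 0.22 and Trim71 -0.25 to 0.0013 against Sox2 48 h, and Trim71 -0.24 to 0.0056 against NMPs. In Tbxt 7 d cells they were Igf2bp3 -0.081 to 0.12 against NMPs, Igf2bp2 -0.25 to 0.30 against FGF Sox2+, and Lin28b -0.43 to 0.41 and Igf2bp2 -0.0068 to 0.16 against FGF/CHIR DN. Between the courses Hmga1 ranged from -0.79 to 0.49.

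Of 21 same-number pairs of libraries 4 had a correlation of deviations above 0.1 (-0.188 to 0.480). These were NMPs with Tbxt 48 h (0.480 for replicate 1 and 0.457 for replicate 2) and Sox2 48 h with FGF Sox2+ (0.201 for each). In 15 of 42 pairings of a library with another group the library correlated best with its own number. Deviations in a group of 2 libraries mirror each other, so these pairs are not separate checks. Whether a number marks a shared batch is not given in the labels. With the replicate block, 4 members passed in Tbxt 48 h against NMPs, where Mycn was lost (adjusted p = 0.0856). In FGF Sox2+ against NMPs 4 passed, with Mycn and Hmga1 lost. The number was the same as without the block in the other 7 comparisons that could be blocked. Under the block, signs changed in Sox2 48 h against NMPs for Lin28b (0.082) and Igf2bp1 (0.047), and in FGF Sox2+ against NMPs for Trim71 (0.0043).

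Counts over all genes moved as follows. Array weights gave the highest count and Sox2 48 h replicate 2 left out the lowest in Sox2 48 h against NMPs (1025, 315 to 3510), and likewise without Tbxt 48 h replicate 2 in Tbxt 48 h against NMPs (2376, 702 to 4834) and against Sox2 48 h (505, 124 to 1221). The FGF/CHIR Sox2+ library gave 234 against Sox2 48 h (3203), 1259 against NMPs (3371) and 2114 between the courses (4346). In double-negative against Sox2+ cells array weights gave 4032 (1826), and in Tbxt 7 d against FGF/CHIR DN the range was 274 with the compared groups alone to 5592 with array weights (2167). Scaling by median of ratios moved the median of all genes by -0.16 in FGF Sox2+ against Sox2 48 h, and quantile normalization by -0.19 there and in Tbxt 7 d against Tbxt 48 h. Hmga2 passed as lower in Tbxt 7 d than in Tbxt 48 h under median-of-ratios scaling and array weights. Depth limits Lin28a in Tbxt 7 d cells and the transcripts Mir100hg and Mir99ahg before 7 d, which rest on few reads, and FGF Sox2+ replicate 2 throughout.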

Other observations

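The members were not the only genes with a full let-7 match, CTACCTCA, in the 3′ UTR model. Among 416 other tested genes that hold it, 31.3% were higher and 28.1% lower in Tbxt 7 d than in Tbxt 48 h cells, with a median log2 fold change of 0.03. Over all 10930 tested genes with a UTR model the shares were 32.3% and 23.4%, with a median of 0.13. In the difference between the courses, 12.5% of the 416 were higher and 25.5% lower on the Tbxt side, with a median of -0.22, against 14.4%, 21.2% and -0.12 over all genes with a UTR model. The UTRs of the 416 were longer, with a median of 2620 bases against 1268.5. These are descriptions, with no test.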
